A study of Mus musculus with 6 samples.

Results

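Cytotoxic granule genes were examined in bulk RNA sequencing of splenic CD4+ T cells sorted by surface Lrig1. The 10 genes were taken as a fixed list by symbol, out of 45777 genes in the deposited tables, and comprise the granzymes *Gzma*, *Gzmb*, *Gzmk* and *Gzmm*, the perforin gene *Prf1*, the granule membrane gene *Nkg7*, the cystatin gene *Cst7*, the cathepsin gene *Ctsw* and the serpin genes *Serpinb9* and *Serpinb6b*. The cells came from the spleens of female C57BL/6 mice, an inbred and here unmodified strain, at 7 weeks of age, and were separated by flow cytometry into CD4+Lrig1+ and CD4+Lrig1- T cells, with no treatment stated for them. Lrig1 is a transmembrane protein with leucine-rich repeats and immunoglobulin-like domains. The labels list 6 samples, 3 in each group, and the 4 libraries whose column names give the group were used, as 2 tables with 1 CD4+Lrig1+ and 1 CD4+Lrig1- library each (set 1 and set 2). The study describes its quantitative data in general as coming from biologically independent samples, while the labels and the RNA sequencing methods give no animal or pool of animals for a library. The p-values of fits without a term for the set measure the spread between these libraries. With that term, called the table term below, they measure the spread left once the difference between sets is removed.

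Cytotoxic lymphocytes, chiefly natural killer (NK) cells and CD8 T cells, store granzymes, which are serine proteases, and the pore-forming protein perforin in secretory lysosomes and release both onto a target cell. Perforin lets the granzymes enter the target, and granzyme B then cleaves caspases and other substrates after aspartate. Cells that carry granules limit damage to themselves with inhibitors, among them clade B serpins that trap granzymes and cystatins that block the cathepsins which mature the granzymes. CD4 T cells as a whole express these genes weakly, and regulatory T cells have been described to use granzyme B and perforin in some settings.

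The libraries held 44865070 to 59977951 estimated counts on genes. *Lrig1*, the gene behind the sort, had 221 and 129 CPM (counts scaled to library size by the TMM method) in the CD4+Lrig1+ libraries of set 1 and set 2, and 75.4 and 36.7 CPM in their CD4+Lrig1- partners. Markers of T cells were high throughout, with *Cd4*, named after its values were seen because it was sorted on, at 924 to 1100 CPM and *Cd3e* at 453 to 632 CPM. The set mattered more than the group for the likeness of libraries (Pearson's r of log2 CPM across genes, which are not independent replicates, 0.960 and 0.959 between the groups of a set against 0.908 between the sets of either group), so values are given by set throughout. Transcripts listed as NK cell markers were present at a low level in every library. The 9 NK cell markers summed to 11.3 and 47.7 CPM in CD4+Lrig1+ and to 37.4 and 111 CPM in CD4+Lrig1- T cells, and none was at 0 in any library.

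Windows around RefSeq start sites on GRCm38 were used for 9 of the 10 genes, without *Ctsw*. For 2 genes with higher values in CD4+Lrig1+ T cells, *Cst7* and *Gzmk*, and for 2 with lower values, *Prf1* and *Gzmb*, the stretch from 250 bases before to 10 bases after the start site (for *Prf1* from 250 to 86 bases before it) is printed on the strand of the gene, to show where short motifs of factors active in cytotoxic lymphocytes lie. Capitals mark matches on either strand to GGTGTGA (T-box factors), TGTGGT (Runx factors) and TGANTCA (AP-1).

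Cst7 (chr2:150570165-150570424, plus strand): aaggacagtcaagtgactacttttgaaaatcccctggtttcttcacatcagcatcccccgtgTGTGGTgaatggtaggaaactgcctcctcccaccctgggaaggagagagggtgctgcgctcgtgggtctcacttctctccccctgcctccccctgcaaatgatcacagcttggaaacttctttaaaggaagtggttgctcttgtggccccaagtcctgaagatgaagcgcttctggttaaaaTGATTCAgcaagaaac

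Gzmk (chr13:113180956-113181215, minus strand): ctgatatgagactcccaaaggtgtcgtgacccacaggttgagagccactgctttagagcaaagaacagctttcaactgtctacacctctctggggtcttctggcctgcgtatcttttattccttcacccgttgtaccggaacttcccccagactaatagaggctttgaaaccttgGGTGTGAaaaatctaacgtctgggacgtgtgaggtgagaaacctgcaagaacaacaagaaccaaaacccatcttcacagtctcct

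Prf1 (chr10:61297586-61297750, plus strand): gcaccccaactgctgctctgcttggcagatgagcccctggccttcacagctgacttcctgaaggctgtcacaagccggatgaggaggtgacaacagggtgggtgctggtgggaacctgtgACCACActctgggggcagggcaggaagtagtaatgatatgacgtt

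Gzmb (chr14:56262325-56262584, minus strand): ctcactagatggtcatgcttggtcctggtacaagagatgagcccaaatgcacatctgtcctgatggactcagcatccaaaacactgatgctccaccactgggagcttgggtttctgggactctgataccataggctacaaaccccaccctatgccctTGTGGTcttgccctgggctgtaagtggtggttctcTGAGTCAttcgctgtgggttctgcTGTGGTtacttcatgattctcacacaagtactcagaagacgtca

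Positions count from the first base of the RefSeq transcript that set each window, as 1. For *Prf1* this was the shorter transcript, which took 3.66% to 12.6% of the estimated counts of the gene, and the longer one starts 85 bases further upstream, where the printed stretch stops. *Cst7* had a Runx match from -188 to -183 and an AP-1 match from -6 to 1. *Gzmk* had a T-box match from -75 to -69 and none of the other motifs. *Prf1* had a Runx match on the opposite strand from -130 to -125. *Gzmb* had Runx matches from -93 to -88 and from -34 to -29, with an AP-1 match from -58 to -52 between them. Over the 10 windows of the 9 genes (2 for *Gzmm*), 7 held the Runx motif, against 16.8% of all 32851 RefSeq windows of 300 bases. The T-box motif was in 3 of the 10 (*Nkg7*, *Gzmm* and *Gzmk*) against 3.98% of all windows, and AP-1 was in 2 against 7.81%. The *Gzmm* T-box match lay in the window of a transcript with 0 counts in every library, and the other *Gzmm* window had none. The NF-kB motif was in 0 of the 10, against 0.807% of all windows. No pair of different motifs overlapped in the printed stretches. A match describes letters in these windows and is not a bound site, and the Runx motif occurred among genes with values in either direction.

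The genes did not shift together between CD4+Lrig1+ and CD4+Lrig1- T cells. *Cst7* was higher by 7.60-fold in set 1 and 6.92-fold in set 2, *Gzmk*, *Serpinb6b* and *Serpinb9* were higher by smaller amounts, and *Prf1*, *Gzma*, *Gzmb*, *Gzmm*, *Ctsw* and *Nkg7* were lower in both sets. All 10 genes passed the filter on low counts. Of them, 4 were higher in both sets, where 36.5% of all 16123 genes tested were, and 6 were lower in both sets, where 41.3% of all genes were. The groups were separate, with CD4+Lrig1+ on top, for 1 gene, *Cst7* (14.3% of all genes), and with CD4+Lrig1+ underneath for 4 genes, *Prf1*, *Gzmb*, *Gzmm* and *Ctsw* (11.8% of all genes). For the other 5 the groups overlapped. In bulk RNA, fewer cells of a type and less RNA per cell cannot be told apart.

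**Figure D1:**
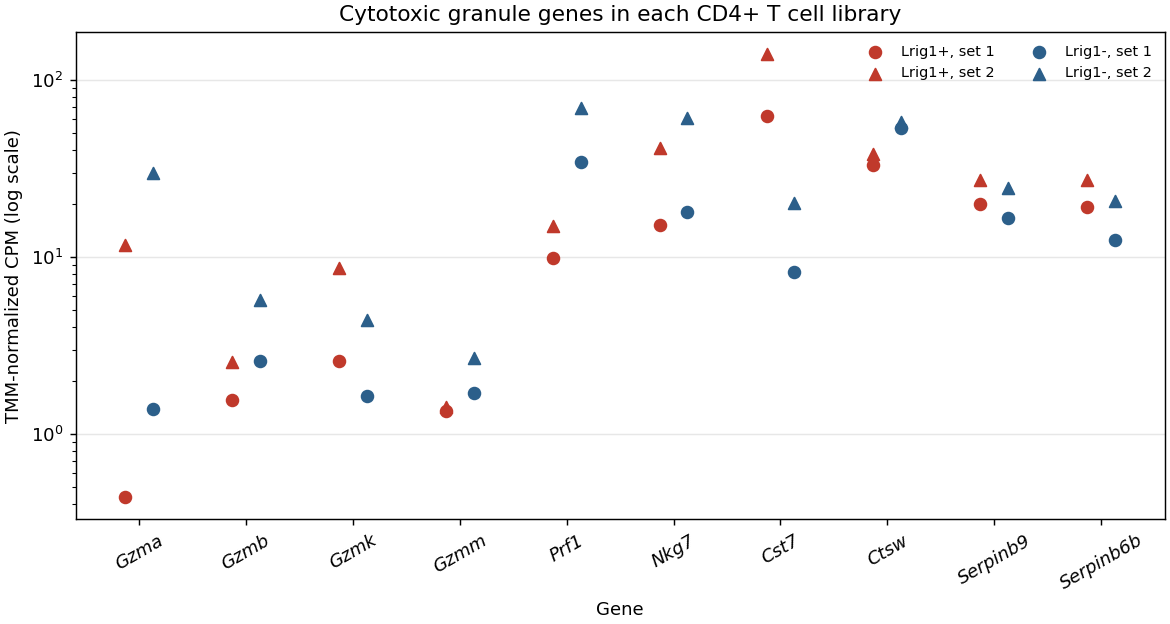
TMM-normalized CPM (log axis) of the 10 genes in each of the 4 libraries, with CD4+Lrig1+ in red, CD4+Lrig1- in blue, set 1 as circles and set 2 as triangles. Both red points of *Cst7* lie above both blue points, those of *Prf1*, *Gzmb*, *Gzmm* and *Ctsw* lie below, and *Gzma* is spread over the widest range, from 0.442 to 29.9 CPM.

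Over all 4 libraries, edgeR's quasi-likelihood test called 0 of the 10 genes at a Benjamini-Hochberg adjusted p under 0.05, as it called no gene at all (0% higher and 0% lower of the genes tested). At an unadjusted p under 0.05 it had 1 of the 10 higher, *Cst7*, against 4.18% of all genes, and 1 lower, *Prf1*, against 1.41%. DESeq2's Wald test called the same 2 genes, *Cst7* higher (adjusted p = 0.00765) and *Prf1* lower (adjusted p = 0.0415), against 1.61% of all genes called higher and 0.31% called lower. When a term for the table that holds each library was added to the quasi-likelihood model, it called 3 of the 10 higher (*Cst7*, *Gzmk* and *Serpinb6b*, against 14.6% of all genes) and 5 lower (*Prf1*, *Gzma*, *Gzmb*, *Ctsw* and *Nkg7*, against 12.8%). *Gzmm* and *Serpinb9* were not called by it. That model leaves 1 residual degree of freedom, and an exact permutation test of 2 libraries against 2 cannot give a p below 0.333.

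**Figure D2:**
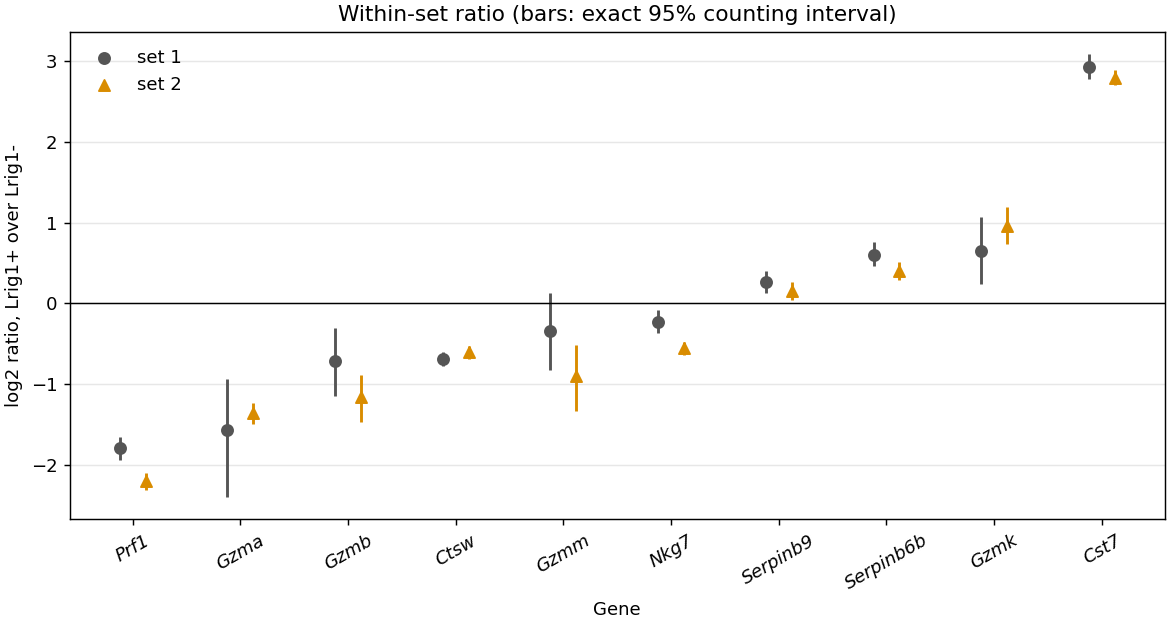
Log2 of the CD4+Lrig1+ level relative to CD4+Lrig1- for each gene within set 1 (circles) and set 2 (triangles), with bars for the exact 95% interval of the ratio of counts, which covers counting error only. *Cst7* lies near 2.9 and 2.8, *Prf1* near -1.8 and -2.2, and only the set 1 bar of *Gzmm* crosses 0.

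*Prf1* encodes perforin (gene ID 18646, chromosome 10 from 61297751 to 61304684 of GRCm38). It had 9.92 and 15.0 CPM in CD4+Lrig1+ T cells of set 1 and set 2, against 34.5 and 69.3 CPM in CD4+Lrig1- T cells. The means were 12.5 ± 3.62 and 51.9 ± 24.6 CPM (SD, n = 2 libraries each). Each CD4+Lrig1+ library was below both CD4+Lrig1- libraries, and the gap was 3.48-fold in set 1 and 4.61-fold in set 2. The log2 fold change over the 4 libraries was -2.06 (standard error 0.50, edgeR adjusted p = 0.654), and with the table term it was -2.01 (standard error 0.12, adjusted p = 4.86e-05 in edgeR). Of the 2 RefSeq transcripts, the longer predicted form of 2667 bases took 87.4% to 96.3% of the estimated counts of the gene in each library.

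*Gzma* encodes granzyme A, a protease that cleaves after basic residues (gene ID 14938, chromosome 13 from 113093824 to 113100981). It had 0.442 CPM in CD4+Lrig1+ against 1.38 CPM in CD4+Lrig1- T cells of set 1, from 23 and 66 estimated counts, and 11.6 against 29.9 CPM in set 2, from 667 and 1615 counts. It was lower in CD4+Lrig1+ T cells by 3.12-fold and 2.57-fold, while the step from set 1 to set 2 was 26.3-fold in CD4+Lrig1+ and 21.7-fold in CD4+Lrig1- T cells, so both libraries of set 2 lay above both of set 1. None of the other 9 genes differed by more than 3.41-fold between the sets of a group. The log2 fold change of -1.37 had a standard error of 2.01 (edgeR adjusted p = 1.00), and the table term gave -1.43 with a standard error of 0.15 (adjusted p = 5.08e-04 in edgeR). With no table term it turned to 2.13 when the CD4+Lrig1- library of set 2 was dropped. The sum of the NK cell markers stepped by 4.21-fold in CD4+Lrig1+ and 2.97-fold in CD4+Lrig1- T cells between the sets. Some other marker sums stepped as well, by 4.92-fold and 5.26-fold (myeloid), 4.05-fold and 10.3-fold (B cell) and 3.66-fold and 4.99-fold (CD8 T cell). Those of innate-like and gamma delta T cells changed by 1.20-fold and 0.823-fold. The part of any of these cells in the *Gzma* values was not tested.

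*Gzmb* encodes granzyme B (gene ID 14939, chromosome 14 from 56258836 to 56262334). It had 1.56 and 2.54 CPM in CD4+Lrig1+ against 2.57 and 5.74 CPM in CD4+Lrig1- T cells. The highest CD4+Lrig1+ value was just under the lowest CD4+Lrig1- value, and within a set the gene was lower by 1.65-fold and 2.26-fold. The counts behind these values were 81 to 310 per library, and the 95% intervals of the log2 ratio were -1.14 to -0.31 in set 1 and -1.47 to -0.89 in set 2. The log2 fold change was -1.02 (standard error 0.65, edgeR adjusted p = 1.00), and -0.96 with the table term (adjusted p = 0.0252 in edgeR).

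*Gzmk* encodes granzyme K, another protease that cleaves after basic residues, close to *Gzma* on chromosome 13 (gene ID 14945, from 113171630 to 113180965). It went the other way from its neighbour, with 2.60 and 8.62 CPM in CD4+Lrig1+ against 1.65 and 4.43 CPM in CD4+Lrig1- T cells. The groups overlapped, since the CD4+Lrig1- library of set 2 was above the CD4+Lrig1+ library of set 1. Within a set the gene was higher by 1.57-fold and 1.95-fold, with 95% intervals of the log2 ratio of 0.24 to 1.07 and 0.74 to 1.19. The log2 fold change was 0.88 (standard error 0.88, edgeR adjusted p = 1.00), and 0.82 with the table term (adjusted p = 0.0217 in edgeR). With no table term it turned to -0.23 when the CD4+Lrig1+ library of set 2 was left out.

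*Gzmm* encodes granzyme M, which cleaves after methionine and leucine (gene ID 16904, chromosome 10 from 79689020 to 79695261). It had 1.35 and 1.43 CPM in CD4+Lrig1+ against 1.71 and 2.70 CPM in CD4+Lrig1- T cells, from 70 to 146 counts. The CD4+Lrig1+ values were the lower ones in both sets, and in set 1 the 95% interval of the log2 ratio (-0.83 to 0.13) held 0, so that difference was not detectable at this depth. Neither edgeR model called it (adjusted p = 1.00 without and 0.176 with the table term). Its 6 transcripts were resolved poorly. One coding form of 1284 bases took 36.6% of the counts in the CD4+Lrig1- library of set 1 and 35.4% in the CD4+Lrig1+ library of set 2, and 0 in the other 2 libraries.

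Of the granzyme genes outside the list, *Gzmc* had 0.731 and 2.02 CPM in CD4+Lrig1+ against 0.919 and 1.35 CPM in CD4+Lrig1- T cells, with opposite directions in the sets. *Gzmd*, *Gzme*, *Gzmg* and *Gzmn* were at 0 counts in every library, and *Gzmf* had 2 counts in 1 library. These genes lie in one cluster with *Gzmb* and resemble it, so reads could have been split between *Gzmb* and *Gzmc* in the counting. On the FPKM scale, which allows levels of different genes to be compared, the granzymes summed to 5.24 and 23.3 FPKM in CD4+Lrig1+ and to 6.49 and 37.9 FPKM in CD4+Lrig1- T cells. *Gzma* made up 9.17% and 51.1% of that sum in CD4+Lrig1+ and 22.9% and 75.4% in CD4+Lrig1- T cells. *Gzmk* made up 43.0% and 30.3% in CD4+Lrig1+ against 21.8% and 8.89% in CD4+Lrig1- T cells. It was the most abundant granzyme in CD4+Lrig1+ T cells of set 1 alone, and in set 2 *Gzma* was the most abundant in both groups.

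**Figure D3:**
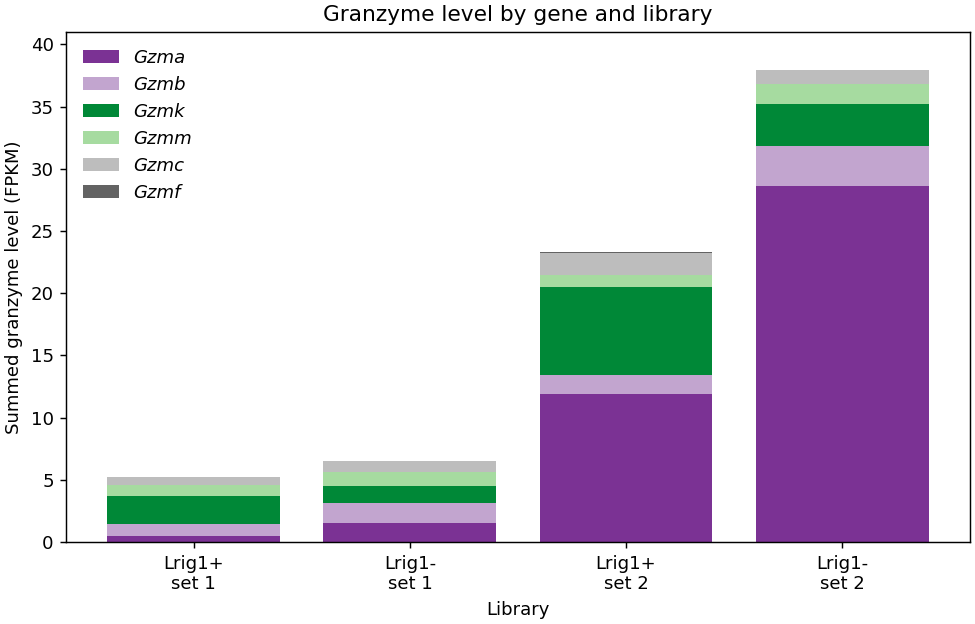
Summed granzyme level in FPKM in each library, with the part of each granzyme gene stacked. *Gzma* fills most of the bar of CD4+Lrig1- T cells in set 2 (28.6 of 37.9 FPKM), and *Gzmk* takes a larger part in CD4+Lrig1+ than in CD4+Lrig1- T cells of the same set.

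*Nkg7* encodes a small granule membrane protein needed for efficient degranulation (gene ID 72310, chromosome 7 from 43437138 to 43438246). It had 15.2 and 41.3 CPM in CD4+Lrig1+ against 17.8 and 60.7 CPM in CD4+Lrig1- T cells. The groups overlapped, and the difference within a set was 1.17-fold and 1.47-fold, smaller than the step of 2.71-fold and 3.41-fold between sets. In edgeR the log2 fold change was -0.47 (standard error 0.83, adjusted p = 1.00), and -0.40 with the table term (adjusted p = 0.0294 in edgeR). With no table term it turned to 0.67 when the CD4+Lrig1- library of set 2 was left out and to 0.12 when the CD4+Lrig1+ one of set 1 was.

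*Cst7* encodes cystatin F, an inhibitor of lysosomal cysteine proteases that include cathepsin C, the enzyme that activates progranzymes (gene ID 13011, chromosome 2 from 150570415 to 150578944). It had 62.5 and 139 CPM in CD4+Lrig1+ against 8.23 and 20.2 CPM in CD4+Lrig1- T cells, from 394 to 8009 counts, with means of 101 ± 54.4 and 14.2 ± 8.44 CPM (SD, n = 2 libraries each). The groups did not overlap, with both CD4+Lrig1+ values on the high side. The log2 ratios were 2.92 and 2.79, with 95% intervals of 2.77 to 3.08 and 2.70 to 2.88, so they differed little between sets although the level itself was 2.23-fold and 2.45-fold higher in set 2. Across the libraries the log2 fold change was 2.83 (standard error 0.70, edgeR adjusted p = 0.656), and 2.85 with the table term (standard error 0.09, adjusted p = 4.80e-06 in edgeR). The table lists 1 transcript of 986 bases.

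On the FPKM scale *Cst7* ranked first of the 10 genes in both CD4+Lrig1+ libraries, with 61.0 and 128 FPKM, and ranked 4 and 5 in the CD4+Lrig1- libraries, with 7.999 and 17.2 FPKM. It made up 49.1% and 52.5% of the summed FPKM of the 10 genes in CD4+Lrig1+ T cells, against 8.50% and 9.18% in CD4+Lrig1- T cells. In CD4+Lrig1- T cells *Ctsw* (38.7%) ranked first in set 1 and *Nkg7* (33.6%) in set 2. The sum of the 10 genes was higher in the CD4+Lrig1+ cells of both sets (124 against 94.1 FPKM and 243 against 188 FPKM), and the sum without *Cst7*, left out after its values were seen, was lower (63.1 against 86.1 FPKM and 116 against 171 FPKM).

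*Ctsw* encodes cathepsin W, a cysteine protease found mainly in NK cells and CD8 T cells (gene ID 13041, chromosome 19 from 5465043 to 5468628). It had 33.1 and 38.2 CPM in CD4+Lrig1+ against 53.4 and 58.0 CPM in CD4+Lrig1- T cells. The groups did not overlap, the sets of a group were within 1.15-fold of each other, and the gene was lower by 1.61-fold and 1.52-fold. This was the gene of the 10 with the smallest step between sets in CD4+Lrig1- T cells (1.09-fold). Over the 4 libraries the log2 fold change was -0.64 (standard error 0.27, edgeR adjusted p = 1.00), and -0.65 with the table term (adjusted p = 0.00133 in edgeR). The main coding form of 1438 bases took 81.6% and 79.7% of the counts in CD4+Lrig1+ against 87.1% and 93.4% in CD4+Lrig1- T cells, and a non-coding form of 1327 bases took 16.7% and 20.2% against 10.9% and 6.57%. These shares rest on StringTie's division of reads between overlapping forms.

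*Serpinb6b* encodes a mouse clade B serpin that inhibits granzyme A (gene ID 20708, chromosome 13 from 32956811 to 32979067). It had 19.0 and 27.3 CPM in CD4+Lrig1+ against 12.5 and 20.8 CPM in CD4+Lrig1- T cells, higher by 1.52-fold and 1.32-fold within a set, with overlapping groups. Over the 4 libraries the log2 fold change was 0.48 (standard error 0.42, edgeR adjusted p = 1.00), and 0.50 with the table term (adjusted p = 0.0117 in edgeR). *Serpinb9*, the inhibitor of granzyme B (gene ID 20723, chromosome 13 from 32997061 to 33017955), had 19.9 and 27.3 CPM against 16.6 and 24.6 CPM, higher by 1.20-fold and 1.11-fold. Neither edgeR model called *Serpinb9* (adjusted p = 1.00 without and 0.154 with the table term). Its log2 fold change of 0.20 turned to -0.054 when the CD4+Lrig1+ library of set 2 was left out and to -0.01 when the CD4+Lrig1- one of set 1 was. All its counts were on 1 of 6 transcripts in every library. Of 14 other clade B serpins 3 were tested. *Serpinb6a*, a close relative of *Serpinb6b*, had 18.3 and 39.4 CPM in CD4+Lrig1+ against 12.4 and 21.6 CPM in CD4+Lrig1- T cells (log2 fold change 0.77, adjusted p = 0.00292 with the table term in edgeR), and reads of the pair could have been split in the counting. *Serpinb1a* had 1.71 and 12.95 CPM against 1.92 and 24.9 CPM (adjusted p = 0.0407 with the table term in edgeR).

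The genes that build and release granules were divided between the groups. Of 18 such genes tested, 11 were higher (36.5% of all genes) and 6 lower (41.3%) in the CD4+Lrig1+ cells of both sets, with a median log2 fold change of 0.13 against -0.04 over all genes tested. The table term called 5 higher (14.6% of all genes) and 4 lower (12.8%), and the quasi-likelihood test without it called 0 (0% of all genes). At an unadjusted p under 0.05 that test had 1 higher (4.18% of all genes) and 0 lower (1.41%). DESeq2's Wald test called 1 higher (1.61% of all genes) and 0 lower (0.31%). *Stx11*, which encodes the syntaxin 11 needed for granule fusion, stood out with 49.0 and 56.1 CPM in CD4+Lrig1+ against 8.54 and 7.999 CPM in CD4+Lrig1- T cells (log2 fold change 2.67, log2 ratios 2.51 and 2.80). *Srgn*, which encodes the proteoglycan that binds granzymes in the granule, had 241 and 781 CPM against 131 and 382 CPM (log2 ratios 0.88 and 1.03). *Lyst*, a regulator of lysosome traffic, was lower, with 119 and 27.5 CPM against 291 and 83.2 CPM (log2 ratios -1.29 and -1.59). *Calr* had log2 ratios of 0.25 and 0.16. The cathepsin C gene *Ctsc*, named after its values were seen because cystatin F acts on its product, had 66.6 and 102 CPM against 77.3 and 131 CPM (log2 ratios -0.21 and -0.36).

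The transcription factors of cytotoxic lymphocytes were divided. Of 8 tested, 4 were higher (36.5% of all genes) and 4 lower (41.3%) in both sets, and the groups did not overlap for 3 higher (14.3% of all genes) and 4 lower (11.8%). *Eomes*, a T-box factor of NK and memory CD8 T cells, had 24.1 and 41.3 CPM in CD4+Lrig1+ against 4.20 and 9.18 CPM in CD4+Lrig1- T cells (log2 fold change 2.29). *Hopx* had 63.3 and 122 CPM against 17.2 and 31.3 CPM (log2 fold change 1.93). *Id2*, an inhibitor of E proteins, was lower, with 64.7 and 73.3 CPM against 126 and 154 CPM (log2 fold change -1.02). The other T-box factor of this list, *Tbx21*, named with *Runx3* after its values were seen, had log2 ratios of -0.61 and -0.56, and *Runx3* had -0.66 and -0.85. With the table term edgeR called 3 of them higher (14.6% of all genes) and 3 lower (12.8%). Its test without the term called 0 of 8 (0% of all genes). At an unadjusted p under 0.05 it had 3 higher (4.18% of all genes) and 1 lower (1.41%). DESeq2's Wald test called 1 higher (1.61% of all genes) and 0 lower (0.31%).

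Among 5 death ligands and effector cytokines, 4 were higher in the CD4+Lrig1+ cells of both sets (36.5% of all genes) and 1 was lower (41.3%), with a median log2 fold change of 0.86. *Lta* had 41.2 and 39.3 CPM against 19.3 and 18.5 CPM (log2 fold change 1.09), and *Tnf* had 29.8 and 21.2 CPM against 14.9 and 8.33 CPM (1.14). The lower gene, named after its values were seen, was *Fasl*, the ligand of the granule-independent killing route, with 8.25 and 11.6 CPM against 14.4 and 15.4 CPM. The table term called all 5, 4 higher (14.6% of all genes) and 1 lower (12.8%), and without it edgeR's quasi-likelihood test called 0 (0% of all genes). At an unadjusted p under 0.05 that test had 1 higher (4.18% of all genes) and 0 lower (1.41%). DESeq2's Wald test called 0 higher (1.61% of all genes) and 0 lower (0.31%).

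Markers of other cell types differed between the same groups. All 9 NK cell markers were lower in the CD4+Lrig1+ cells of both sets (41.3% of all genes), with a median log2 fold change of -1.36, and their summed level was 0.303 of that in CD4+Lrig1- T cells in set 1 and 0.429 in set 2. *Klrc2* had 0.231 and 0.313 CPM in CD4+Lrig1+ against 1.98 and 1.63 CPM in CD4+Lrig1- T cells, *Klre1* had 0.231 and 1.11 against 1.17 and 4.31 CPM, and *Tyrobp* and *Fcer1g* had log2 fold changes of -1.01 and -0.49. For comparison, the same ratio was 0.288 and 0.217 for *Prf1*, 0.321 and 0.388 for *Gzma*, 0.606 and 0.443 for *Gzmb*, 0.786 and 0.528 for *Gzmm*, 0.620 and 0.658 for *Ctsw*, 0.855 and 0.680 for *Nkg7*, and 7.60 and 6.92 for *Cst7*. It was 1.57 and 1.95 for *Gzmk*, 1.52 and 1.32 for *Serpinb6b*, and 1.20 and 1.11 for *Serpinb9*. These 3 genes and *Cst7* were thus higher in both sets, where the NK cell markers were lower. The innate-like and gamma delta T cell markers, which include *Zbtb16*, *Trdc*, *Tcrg-C1* and *Tcrg-C2*, summed to 12.7 and 15.2 CPM in CD4+Lrig1+ against 42.8 and 35.3 CPM in CD4+Lrig1- T cells, and 4 of 4 tested were lower in both sets (41.3% of all genes). The CD8 T cell markers *Cd8a* and *Cd8b1* summed to 14.1 and 51.6 CPM against 19.5 and 97.3 CPM. The part of these cells in the lower values of *Prf1*, *Gzma*, *Gzmb*, *Gzmm*, *Ctsw* and *Nkg7* was not tested.

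In the other direction, the 5 regulatory T cell markers were higher in the CD4+Lrig1+ cells of both sets (36.5% of all genes) and summed to 2020 and 1717 CPM against 207 and 140 CPM, 9.78-fold and 12.3-fold. *Cst7*, *Stx11* and *Eomes* were also higher in both sets, as were *Gzmk*, *Serpinb6b*, *Serpinb9*, *Hopx*, *Srgn*, *Lta* and 36.5% of all genes. A link of any of them to regulatory T cells was not tested. The B cell markers summed to 85.9 and 348 CPM in CD4+Lrig1+ against 65.2 and 670 CPM in CD4+Lrig1- T cells, so their direction differed between sets. The myeloid markers summed to 31.6 and 155 CPM against 29.8 and 157 CPM, with members in both directions. Of 7 tested, 2 were higher in both sets (36.5% of all genes), 2 were lower (41.3%) and 3 were mixed. *Csf1r* had log2 ratios of 1.05 and 1.03, and *Itgam* had -1.21 and -1.70. The 4 plasmacytoid dendritic cell markers were lower in both sets (41.3% of all genes) and summed to 14.2 and 15.5 CPM against 39.3 and 64.4 CPM. Of these sums *Ccr9* had 9.54 and 12.6 CPM against 24.1 and 28.4 CPM, and *Siglech* had 3.77 and 2.54 CPM against 12.6 and 27.0 CPM. Markers of mast cells and basophils summed to between 0.0418 and 2.02 CPM. The 7 naive T cell markers were lower in both sets (41.3% of all genes), with *Tcf7* and *Lef1* at log2 fold changes of -0.71 and -1.39. The T cell identity genes were close between the groups, with summed ratios of 1.06 and 1.05.

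**Figure D4:**
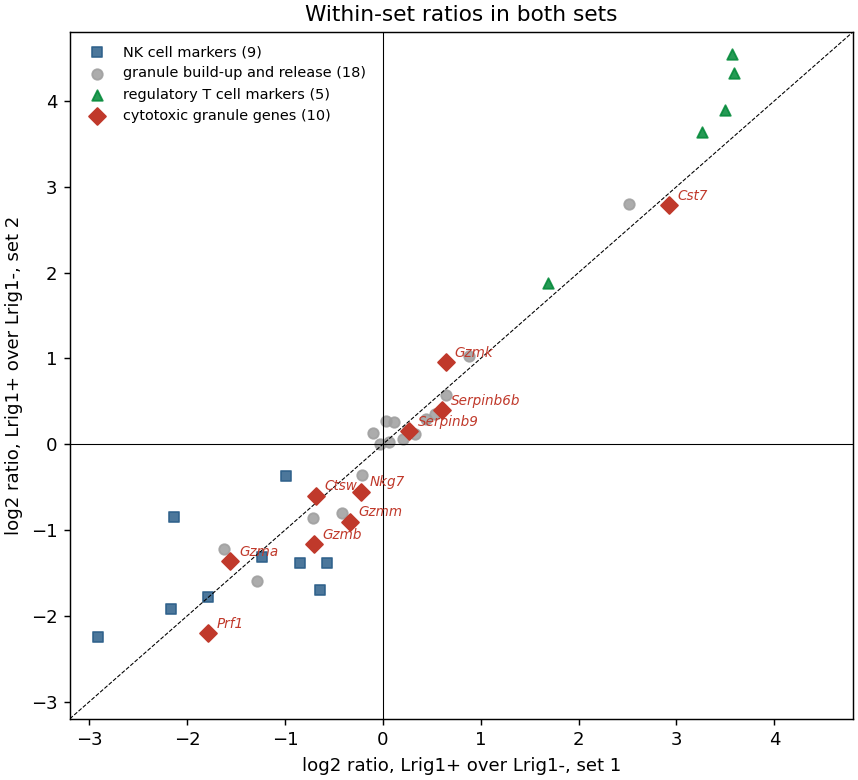
Log2 of the CD4+Lrig1+ level relative to CD4+Lrig1- in set 1 (horizontal) against set 2 (vertical) for the 10 cytotoxic granule genes (red diamonds), the 9 NK cell markers (blue squares), 18 genes of granule build-up and release (grey circles) and 5 regulatory T cell markers (green triangles), with the line of equal ratios dashed. All NK cell markers lie below 0 in both sets with *Prf1*, *Gzma*, *Gzmb*, *Gzmm*, *Ctsw* and *Nkg7*. In both sets *Cst7* lies above the regulatory T cell marker *Tnfrsf18* and below all the other regulatory T cell markers.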

How the data were processed

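RNA of T cells sorted from spleen by CD4 and Lrig1 was sequenced by the authors on paired ends from a stranded mRNA kit. By the submitters' processing notes and the study's methods, reads were trimmed with Trimmomatic 0.38, mapped with HISAT2 2.1.0 to GRCm38 and quantified per RefSeq transcript with StringTie 2.1.3b. The estimated counts are deposited by the authors without normalization, and the FPKM values were scaled by the authors to transcript length and mapped fragments. Another 6 columns of library values, in 1 other table, were not used here, because the group cannot be read from their names.

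Estimated counts of the 129299 transcripts were summed per gene symbol. The 16123 genes passing edgeR's filterByExpr were normalized by TMM and tested with the quasi-likelihood test of edgeR 4.0.16 in R 4.3.3, with Benjamini-Hochberg adjustment over all of them and a threshold of 0.05. The standard error is the log2 fold change over the square root of the F statistic. Within-set log2 ratios were computed after adding a prior count (2), and within-set folds without one. Their 95% intervals are exact binomial and cover counting error only, since no molecular identifiers are described. Alternatives were DESeq2 1.42.0, edgeR's exact test, limma 3.58.1 on log2-transformed FPKM with a pseudocount of 1 or 0.1, other scalings and filters, a table term, and leaving out each library. The procedure was also run on simulated counts with the same fixed spread for every gene. That spread was not taken from these libraries, so the run does not measure error rates here. Figures and sequences were handled in Python 3.11.15. The 10 genes and all lists were chosen with earlier results of these data known. All 10 are described. From each further list, the 2 genes with the highest mean FPKM and the 2 with the largest log2 fold change could be named, and others are marked. A protein search was planned and not done, because protein sequences were not used here. Of the listed genes, 2 did not match a symbol of the tables.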

Additional observations from a re-analysis of the deposited data

How the results depend on the processing

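Without the table term, 0 genes were called under DESeq2's size factors, library totals, no filter, at least 10 counts in every library, limma on either FPKM scale and an adjusted p under 0.1. DESeq2's Wald test called 260 genes higher and 50 lower with 2 of the 10 granule genes, and edgeR's exact test called 179 and 14 with 1 (*Cst7*, adjusted p = 0.0379). The table term called 2358 and 2056 with 8. Combined with DESeq2's Wald test it called 1848 and 1969 with 6 (without *Gzmb* and *Gzmk*), with library totals 3065 and 2024 with 8, and with DESeq2's size factors 2208 and 2388 with 8. With each library left out in turn, 1 to 88 genes were called higher, 0 to 2 lower, and 0 of the 10. Those fits have no table term, so the step between sets enters them, and a lone library is assumed to vary like the other group. In them *Gzma* ran from -5.15 to 2.13, turning when the CD4+Lrig1- library of set 2 was dropped. *Nkg7* ran from -1.37 to 0.67, turning when that library or (0.12) the CD4+Lrig1+ library of set 1 was dropped. *Gzmk* ran from -0.23 to 1.77 and *Serpinb9* from -0.054 to 0.51, both turning when the CD4+Lrig1+ library of set 2 was dropped, and *Serpinb9* also (-0.01) when the CD4+Lrig1- library of set 1 was. *Prf1* ran from -2.43 to -1.46 and *Cst7* from 2.13 to 3.62. In the other alternatives all 10 genes kept their direction, as did all ratios within a set under another scaling, prior count or unit. By replicate number, no paired analysis was possible because the columns carry none, and the table term is a block by deposited table.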
